A study of Mus musculus with 4 samples.

Results

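MHC class I and antigen processing genes were read in tdTomato-positive cells of the Pdgfra lineage, sorted from the forebrains of mouse pups with and without the MN1:BEND2 fusion gene. The set held 10 genes chosen by name: B2m, H2-K1, H2-D1 and H2-T23 for the class I molecule, Tap1, Tap2 and Tapbp for peptide loading, and Psmb8, Psmb9 and Psme1 for the proteasome. All 10 had a row among the 54348 rows of the deposited table, and 9 of them were among the 12871 genes tested. The fusion group was PdgfraCreER;MN1:BEND2;AI14 and the control group was PdgfraCreER;AI14, with 2 libraries each. All 4 libraries therefore carried the Cre driver, in which tamoxifen switches on a recombinase made by Pdgfra-expressing cells, and the AI14 reporter, which makes tdTomato once recombined. All pups received tamoxifen on postnatal days 0 and 1 and were killed on postnatal day 4. Pdgfra marks oligodendrocyte precursor cells and also some fibroblasts, so sorted cells need not be of a single type. The labels leave unsaid whether both libraries of a group came from different pups, so a p-value here covers library-to-library spread, part of which may be technical. Levels are given as TPM, a share of all transcripts in a library after correction for transcript length.

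Class I molecules show peptides from inside the cell to CD8 T cells. A heavy chain, encoded in the mouse by H2 genes, pairs with the light chain beta-2-microglobulin, and peptides cut by the proteasome are pumped into the endoplasmic reticulum by the transporter made of Tap1 and Tap2 and loaded with the help of tapasin (Tapbp). Interferons raise many of these genes and swap subunits of the proteasome for immunoproteasome subunits. Neurons and glia of the healthy brain are known for low class I levels.

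Of the 10 genes, 8 lie on chromosome 17 in GRCm38 (GENCODE M21), most of them in the major histocompatibility complex. Psmb9 (34181987 to 34187764), Tap1 (34187553 to 34197225), Psmb8 (34197721 to 34201454) and Tap2 (34203527 to 34216321) follow each other within 34335 bases, with Psmb9 on the minus strand and the others on the plus strand. The heavy chain genes are H2-K1 (33996017 to 34000347, minus strand), H2-D1 (35262730 to 35267499, plus strand) and H2-T23 (36029773 to 36032855, minus strand), and Tapbp spans 33915899 to 33929292 on the plus strand. B2m lies on chromosome 2 (122147686 to 122153083, plus strand) and Psme1 on chromosome 14 (55578123 to 55581529, plus strand).

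Promoter stretches are shown for B2m and the heavy chain genes because B2m, H2-K1 and H2-T23 were higher in the fusion libraries and H2-D1 was not called in TPM as deposited, though it was called higher once libraries were rescaled to a common median, as described below. Each stretch runs 5′ to 3′ on the strand of its gene, from position -200 to -51 relative to the RefSeq start (GRCm38.p6), and capitals mark a motif match.
B2m, chr2:122147487-122147636, plus strand: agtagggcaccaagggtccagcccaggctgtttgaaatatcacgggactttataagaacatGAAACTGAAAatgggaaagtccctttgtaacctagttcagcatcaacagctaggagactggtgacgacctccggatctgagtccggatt
H2-K1, chr17:34000398-34000547, minus strand: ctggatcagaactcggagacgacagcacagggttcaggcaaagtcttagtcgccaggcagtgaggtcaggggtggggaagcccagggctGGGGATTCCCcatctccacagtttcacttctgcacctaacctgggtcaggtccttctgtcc
H2-T23, chr17:36032752-36032901, minus strand: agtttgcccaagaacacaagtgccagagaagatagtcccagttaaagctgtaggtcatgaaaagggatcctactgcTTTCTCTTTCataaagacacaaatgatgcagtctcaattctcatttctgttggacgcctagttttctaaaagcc
H2-D1, chr17:35262894-35263043, plus strand: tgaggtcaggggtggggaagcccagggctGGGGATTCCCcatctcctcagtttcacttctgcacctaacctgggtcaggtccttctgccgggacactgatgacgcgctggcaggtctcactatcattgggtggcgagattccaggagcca

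Windows of 250 bases before to 50 after the start were searched on both strands, and 9 of the 10 genes had one; Tap2 had none. GAAA, then 2 bases of any kind, then GAAA, the core of the interferon-stimulated response element that IRF factors bind, occurred in 3.44% of all 32851 mouse promoter windows. It matched in the B2m window, beginning at -139, in the H2-T23 window at -124 on the opposite strand, and in the Psme1 window as TTTCGCTTTC at position 9 after the start, also on the opposite strand. Only exact letters were counted, so an element that departs from this pattern was missed. The H2-K1 and H2-D1 stretches both hold TTTCACTTCT, which resembles the pattern on the opposite strand and was not counted. A lack of a match in these genes is therefore no sign that they lack a response element. GGG, then 2 bases of any kind, then TTCCC, a form of the kappa B element, occurred in 1.75% of all windows and matched in H2-K1 at -111 and in H2-D1 at -171, with the same 10 letters in both. H2-K1 has a second RefSeq start, from which the match lies at -125. The letters TGACGT occurred in 7.51% of windows and in none of the 9 genes' windows. No matches overlapped one another. The H2-K1 window of that second start and the H2-D1 window shared a run of 47 identical bases. Aligned without gaps, 180 of 254 bases (70.9%) were identical. H2-K1 and H2-D1 hold the same kappa B letters, as the lines above show. A letter match is a description and not a measured binding site.

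The libraries of the groups stood apart beyond these genes. Mitochondrially encoded genes held 26.2% to 48.7% of TPM in the fusion and 7.30% to 10.1% in the control libraries, and 9050 to 10017 against 12772 to 13219 genes reached 1 TPM. Bend2 had 3.82 and 8.72 TPM in the fusion libraries and was listed at 0 in both control libraries. The summed TPM of 4 Y-linked genes was 0.190 to 0.281 in the fusion and 156 to 157 in the control libraries, so sex and genotype cannot be told apart. The median log2 change of all tested genes, fusion minus control on the log2(TPM + 1) scale, was -1.41. Changes are therefore also given relative to that median and after the libraries were rescaled to a median ratio of 1, where the median change was -0.15. As the samples are bulk RNA, fewer cells of a type and less RNA per cell cannot be told apart.

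B2m, which encodes the light chain that every class I molecule carries, was the most abundant of the 10 genes in every library. It had 4971 and 4367 TPM in the fusion libraries, against 411 and 418 TPM in the control libraries. The groups lay far apart, and the libraries within each were close. By level B2m ranked 17 and 23 among all genes in the fusion libraries and 471 and 466 in the control libraries. The means were 4669 ± 427 TPM and 415 ± 4.78 TPM (SD, n = 2 each), an 11.3-fold difference. The log2 change was 3.49 ± 0.35 (SE, adjusted p = 0.00371, limma with Benjamini-Hochberg adjustment), or 4.89 relative to the median of all genes.

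H2-K1, a classical class I heavy chain that presents peptides to T cells, had 273 and 406 TPM in the fusion libraries, against 25.3 and 26.7 TPM in the control libraries. Both fusion libraries were well above both control libraries, and fusion replicate 2 was the higher. The log2 change was 3.63 ± 0.36 (SE, adjusted p = 0.00371, limma), or 5.03 relative to the median of all genes, and 0.513% of tested genes had a larger change. H2-T23, which encodes the nonclassical heavy chain Qa-1, a ligand of the natural killer cell receptors of the NKG2 family, had 51.5 and 44.8 TPM in the fusion libraries, against 7.79 and 9.13 TPM in the control libraries. Its log2 change was 2.38 ± 0.36 (SE, adjusted p = 0.00591, limma), or 3.78 relative to the median.

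H2-D1, the other classical heavy chain named here, had 50.1 and 85.9 TPM in the fusion libraries, against 58.6 and 100.0 TPM in the control libraries. The groups overlapped, and replicate 2 was the higher library in both. Its log2 change of -0.22 ± 0.46 (SE, adjusted p = 0.708, limma) turned to 1.53 after rescaling, which passed the threshold (adjusted p = 0.0238), and it lay at 1.19 relative to the median.

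**Figure D1:**
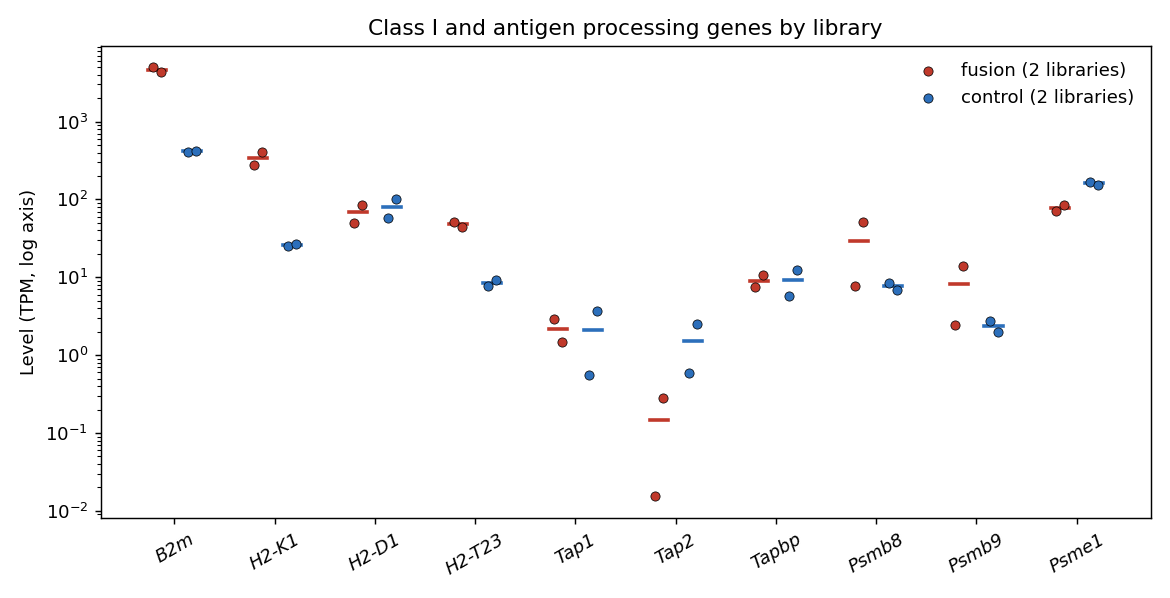
Level of each gene in TPM on a log axis, with 1 point for each library and a bar at the mean of the 2 libraries of a group. B2m, H2-K1 and H2-T23 lie higher in both fusion libraries, H2-D1, Tap1 and Tapbp overlap between groups, and Psmb8 and Psmb9 as deposited are high in 1 fusion library.

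The heavy chains differed from one another within a library, which a factor common to the library cannot change. H2-K1 made up 72.9% and 75.6% of the summed TPM of H2-K1, H2-D1 and H2-T23 in the fusion libraries, against 27.6% and 19.7% in the control libraries. H2-D1 made up 13.4% and 16.0% in the fusion and 63.9% and 73.6% in the control libraries. The heavy chain with the largest share was thus H2-K1 in both fusion libraries and H2-D1 in both control libraries. H2-T23 held 13.7% and 8.35% in the fusion and 8.50% and 6.72% in the control libraries, and here the groups overlapped.

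B2m exceeded the heavy chains by more in the fusion libraries. B2m was 13.3 and 8.14 times the summed TPM of the 3 heavy chains in the fusion libraries, and 4.49 and 3.08 times in the control libraries. The log2 ratio of summed heavy chains to B2m was -3.37 ± 0.50 in the fusion and -1.88 ± 0.38 in the control libraries (SD, n = 2 each), a difference of -1.49. The groups did not overlap, with an exact 2-sided permutation p of 0.333, the smallest that 2 against 2 libraries can give.

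The separate values of the heavy chain genes rest on how reads common to related H2 transcripts were divided. Of all 31-base words in H2-K1 transcripts (GENCODE M21), 22.8% also occur in transcripts of other genes, among them 11.1% in H2-D1. For H2-D1 and H2-T23 the shares with any other gene were 26.9% and 25.8%, and for B2m 0%. As a value free of that division among them, the TPM of 16 class I H2 rows was summed. Division with genes outside the sum remains. H2-T23 shared 12.4% of its words with H2-T-ps and 6.32% with H2-Bl, and neither was summed. The sum was 399.7 and 581 TPM in the fusion libraries, against 124 and 182 TPM in the control libraries (log2 change 1.67 ± 0.39, SE, adjusted p = 0.0182, limma).

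Tap1 and Tap2 encode the partner chains of the peptide transporter, and neither was called. Tap1 had 2.88 and 1.45 TPM in the fusion libraries, against 0.551 and 3.66 TPM in the control libraries. Both fusion values lay inside the range of the control libraries, and the log2 change was 0.20 ± 0.62 (SE, adjusted p = 0.802, limma). Tap2 had 0.0153 and 0.282 TPM in the fusion libraries, against 0.592 and 2.48 TPM in the control libraries. Both fusion libraries were below both control libraries, at levels too low for the filter of at least 1 TPM in at least 2 libraries, so Tap2 was not tested. With no filter its log2 change was -1.05 ± 0.48 (SE, adjusted p = 0.220, limma). The rescaled values of Tap2 overlapped between groups.

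Tapbp, which encodes tapasin, the protein that holds empty class I molecules at the transporter, had 7.41 and 10.7 TPM in the fusion libraries, against 5.78 and 12.6 TPM in the control libraries. Here too the fusion values lay inside the control range. Its log2 change of 0.05 ± 0.52 (SE, adjusted p = 0.940, limma) was 1.46 relative to the median, and 1.62 after rescaling (adjusted p = 0.0463). Tapbp shared 26.9% of its 31-base words with other gene models, mostly Gm19412.

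Psmb8 and Psmb9 encode catalytic subunits of the immunoproteasome, and in TPM as deposited both were high in fusion replicate 2 alone. Psmb8 had 7.75 and 50.8 TPM in the fusion libraries, against 8.45 and 6.94 TPM in the control libraries. Psmb9 had 2.42 and 14.0 TPM in the fusion libraries, against 2.72 and 2.00 TPM in the control libraries. Fusion replicate 1 lay within the control range for both, while replicate 2 was 6.56 times replicate 1 for Psmb8 and 5.77 times for Psmb9. The log2 changes were 1.30 ± 0.88 for Psmb8 and 1.10 ± 0.78 for Psmb9 (SE, adjusted p = 0.253 and 0.271, limma). After rescaling both fusion libraries were above both control libraries for both genes, and the log2 changes were 2.87 for Psmb8 (adjusted p = 0.0446, limma) and 2.37 for Psmb9 (adjusted p = 0.0610). Without fusion replicate 2 they were 0.02 and 0.04. Without fusion replicate 1 they were 2.58 (adjusted p = 0.00682) and 2.16 (adjusted p = 0.0173), with the lone fusion library assumed to vary as the control libraries did. Fusion replicate 1 was also the library with 48.7% of TPM in mitochondrially encoded genes, and the part of this in the result was not tested.

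Psme1 encodes the alpha subunit of PA28, a cap that opens the proteasome. It had 70.2 and 84.4 TPM in the fusion libraries, against 169 and 153 TPM in the control libraries. Both fusion libraries were below both control libraries. The log2 change was -1.05 ± 0.33 (SE, adjusted p = 0.0415, limma), but it was 0.35 relative to the median of all genes and 0.70 after rescaling (adjusted p = 0.121), in the other direction.

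Of the 9 tested genes, 3 rose, 1 fell and 5 did not pass. Among all 12871 tested genes 4.95% were called higher and 51.3% lower. The groups did not overlap for 5 of the 10 genes, with the fusion pair above for 3 and below for 2; over all tested genes the shares were 10.2% above and 71.1% below. The median log2 change of the 9 genes was 1.10, against -1.41 over all tested genes, and each of the 9 lay above that median. After rescaling, 6 rose (B2m, H2-K1, H2-D1, H2-T23, Tapbp and Psmb8), none fell and 3 did not pass, while 14.3% of all genes were called higher and 18.6% lower. The rescaled fusion libraries lay above both rescaled control libraries for all of the 10 genes except Tap2, against 31.3% of all tested genes above and 38.8% below. Without control replicate 1 or without control replicate 2 the calls of these genes were lost, as were most calls over all tested genes. The log2 changes of B2m, H2-K1 and H2-T23 were 3.48, 3.59 and 2.28 without control replicate 1. Without control replicate 2 they were 3.50, 3.67 and 2.48.

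**Figure D2:**
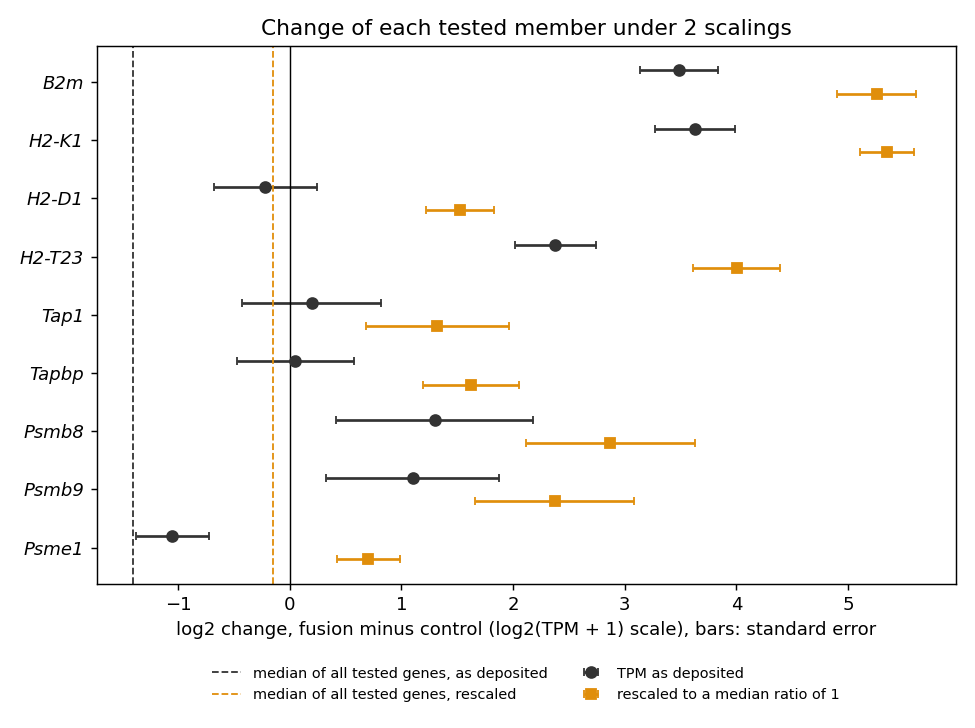
log2 change of the 9 tested genes, fusion minus control on the log2(TPM + 1) scale, with standard errors, for TPM as deposited (circles) and after rescaling (squares); dashed lines give the median of all tested genes, -1.41 and -0.15. B2m and H2-K1 lie farthest to the right under both scalings, and H2-D1 and Psme1 change sign between them.

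Each immunoproteasome subunit replaces a standard one, namely Psmb8 for Psmb5, Psmb9 for Psmb6 and Psmb10 for Psmb7, and the ratio within a library does not move with a common factor. Psmb8 made up 10.9% and 49.9% of the summed TPM of Psmb8 and Psmb5 in the fusion libraries, against 1.47% and 1.11% in the control libraries. Psmb9 made up 0.443% and 1.33% of its pair in the fusion and 0.155% and 0.117% in the control libraries. Psmb10 made up 59.1% and 64.1% of its pair in the fusion and 36.3% and 35.0% in the control libraries.

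All 3 ratios were higher in both fusion libraries than in both control libraries, each with the smallest exact permutation p of 0.333 that the design allows. The differences of the log2(TPM + 1) ratios were 4.66, 2.30 and 1.52. The standard subunits Psmb5 and Psmb7 themselves fell, Psmb5 also after rescaling. Psmb5 had 63.3 and 51.0 TPM in the fusion and 567 and 618 TPM in the control libraries (log2 change -3.36 ± 0.33, SE, adjusted p = 0.00371, limma). Psmb7 had 31.9 and 66.7 TPM in the fusion libraries, against 242 and 239 TPM in control libraries. Psmb10 itself, which was not called, had 46.1 and 119 TPM in the fusion, against 138 and 128 TPM in the control libraries. Psmb6 stayed the far more abundant of its pair, at 544 and 1033 TPM in the fusion and 1749 and 1707 TPM in the control libraries.

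**Figure D3:**
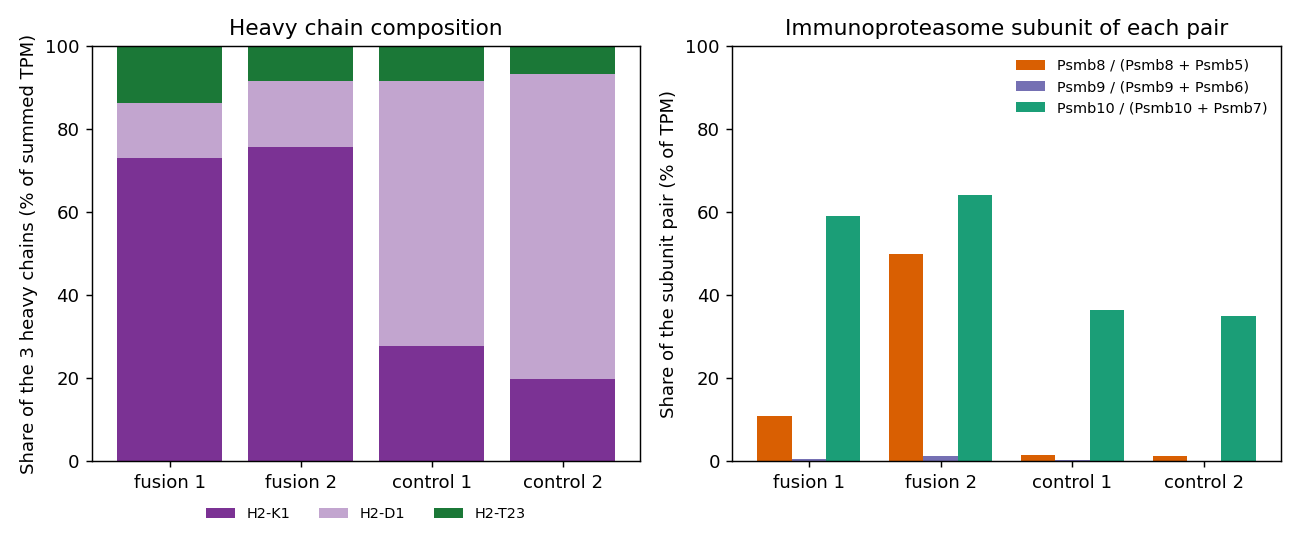
Left, the share of each heavy chain in the summed TPM of H2-K1, H2-D1 and H2-T23, by library. Right, the immunoproteasome subunit as a percentage of the summed TPM of its pair, by library; H2-K1 holds the largest heavy chain share in both fusion libraries, and Psmb8 reaches 49.9% of its pair in fusion replicate 2.

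For the proteasome cap, Psme1 was set against Psme3, a subunit of a different cap. With 1 TPM added to each, the log2 ratio was 3.84 ± 0.10 in the fusion and 3.57 ± 0.32 in the control libraries (SD, n = 2 each). On that scale the groups overlapped (exact permutation p = 0.667). Without the added 1 TPM the ratios were 16.6 and 18.0 in the fusion, against 10.7 and 15.2 in the control libraries, with no overlap. Psme2, the partner of Psme1 and named here after its values were seen, had 156 and 450 TPM in the fusion, against 298 and 279 TPM in the control libraries. The log2 ratio of Tap1 to Tap2 was 1.93 and 0.94 in the fusion libraries, against -0.04 and 0.42 in the control libraries, a difference of 1.24 with no overlap (exact permutation p = 0.333, the smallest possible). That ratio rests on Tap2 values under 1 TPM in both fusion libraries.

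The other genes of the pathway were read from 5 lists, whose counts stand beside the 4.95% of all tested genes called higher and 51.3% called lower, or 14.3% and 18.6% after rescaling. Of 11 tested peptide loading and trimming genes, none rose, 5 fell and 6 did not pass, with a median log2 change of -1.24 that turned to 0.27 after rescaling. At an unadjusted p under 0.05 (limma) still 0 were higher, and 6 were lower, where at least 51.3% of all tested genes were lower. Pdia3 (ERp57), a disulfide isomerase of the loading complex, had 7.59 and 9.41 TPM in the fusion, against 358 and 201 TPM in the control libraries. Calr (calreticulin), which binds new heavy chains, had 12.8 and 11.9 TPM in the fusion, against 177 and 241 TPM in the control libraries. Their log2 changes were -4.83 and -3.96 (adjusted p = 0.00367 for both, limma), and both were also called lower after rescaling. Sec61a1, for the channel of the endoplasmic reticulum, and Nrd1, a peptidase, fell by 2.86 and 1.97 on the log2 scale (adjusted p = 0.0132 and 0.0194, limma), neither passing after rescaling. Canx (calnexin, a chaperone of new heavy chains) had 62.1 and 87.3 TPM in the fusion libraries, against 138 and 182 TPM in control libraries, and did not pass. Tpp2, a cytosolic peptidase, had 18.6 and 16.2 TPM in the fusion libraries, against 20.7 and 19.4 TPM in control libraries, and did not pass either. After rescaling, 2 of the 11 were called higher and 2 lower.

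Other class I heavy chains had 15 rows, of which 6 were tested. Of these, 1 was higher, 2 were lower and 3 were not called, with a median log2 change of -0.79. After rescaling the median was 0.60, and 2 were called higher and none lower. The 2 were H2-Q6 and H2-Q7 (adjusted p = 0.0244 and 0.0263, limma). H2-Q6, a Qa region gene, had 2.67 and 15.0 TPM in the fusion, against 0.541 and 0.0668 TPM in the control libraries (log2 change 2.58, adjusted p = 0.0351, limma). Cd1d1, which presents lipids to natural killer T cells, had 4.14 and 0.0164 TPM in the fusion, against 21.5 and 30.5 TPM in the control libraries (log2 change -3.54, adjusted p = 0.0187). H2-T24 fell by 0.74 on the log2 scale (adjusted p = 0.0478), a change that vanished with rescaling (0.00). H2-T22 had 12.2 and 9.71 TPM in the fusion libraries, against 20.2 and 29.6 TPM in control libraries, and did not pass. H2-M3, which presents formylated peptides, had 2.44 and 6.74 TPM in the fusion libraries, against 5.64 and 11.8 TPM in control libraries, and did not pass.

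Of 19 other proteasome genes tested, none rose, 5 fell and 14 did not pass, with a median log2 change of -1.05, or 0.57 after rescaling. At an unadjusted p under 0.05 (limma), 0 were higher and 9 lower. Over all tested genes the shares at that threshold are at least 4.95% higher and 51.3% lower, the shares after adjustment. Those that fell most were Psmb5, given above, Psmb4, Psma7 and Psmb7, with log2 changes of -3.28, -2.67 and -2.35 for the last 3. Psmb2, a structural subunit of the core particle, had 826 and 2612 TPM in the fusion, against 1304 and 1131 TPM in control libraries, and was not called. After rescaling, 3 of the 19 were called higher and 2 lower.

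Among 18 tested regulators of class I transcription, 2 rose, 4 fell and 12 did not pass (median log2 change -0.79, or 0.70 after rescaling). Irf7, a transcription factor that interferons induce, had 9.20 and 21.1 TPM in the fusion, against 0.0240 and 0.339 TPM in the control libraries (log2 change 3.68, adjusted p = 0.00537, limma). Irf9, the DNA-binding part of the complex through which type I interferons act, had 7.49 and 25.1 TPM in the fusion, against 1.97 and 2.39 TPM in the control libraries (log2 change 2.23, adjusted p = 0.0341). Ifngr1, a chain of the interferon gamma receptor, fell by 2.70 and Rfxank, a subunit of the RFX complex, by 2.18 on the log2 scale (adjusted p = 0.00463 and 0.0139), and neither passed after rescaling. Ifnar2, a chain of the type I interferon receptor, had 4.93 and 14.9 TPM in the fusion, against 27.2 and 12.9 TPM in control libraries, and was not called. Nlrc5, the transactivator of class I genes, named here after its values were seen, was at 0.274 and 2.09 TPM in the fusion libraries and listed at 0 in both control libraries, too low to be tested. After rescaling, 6 of the 18 regulators were called higher and none lower.

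Class II genes, which serve presentation to CD4 T cells, were mostly too low to be tested. Of 11 with a row, 3 were tested. Their median log2 change was -2.78, or -1.67 after rescaling, where 1 was called higher and none lower. Ctss, a lysosomal protease that is also a macrophage gene, rose (15.9 and 28.4 TPM in the fusion, against 6.40 and 3.37 TPM in the control libraries, adjusted p = 0.0245, limma). H2-DMa fell, being listed at 0 and at 5.20 TPM in the fusion libraries, against 40.0 and 43.8 TPM in the control libraries (adjusted p = 0.0150). H2-Ab1 did not pass, listed at 0 and at 6.95 TPM in the fusion, against 14.2 and 23.8 TPM in the control libraries. H2-Aa and the class II transactivator Ciita were listed at 0 in all 4 libraries.

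**Figure D4:**
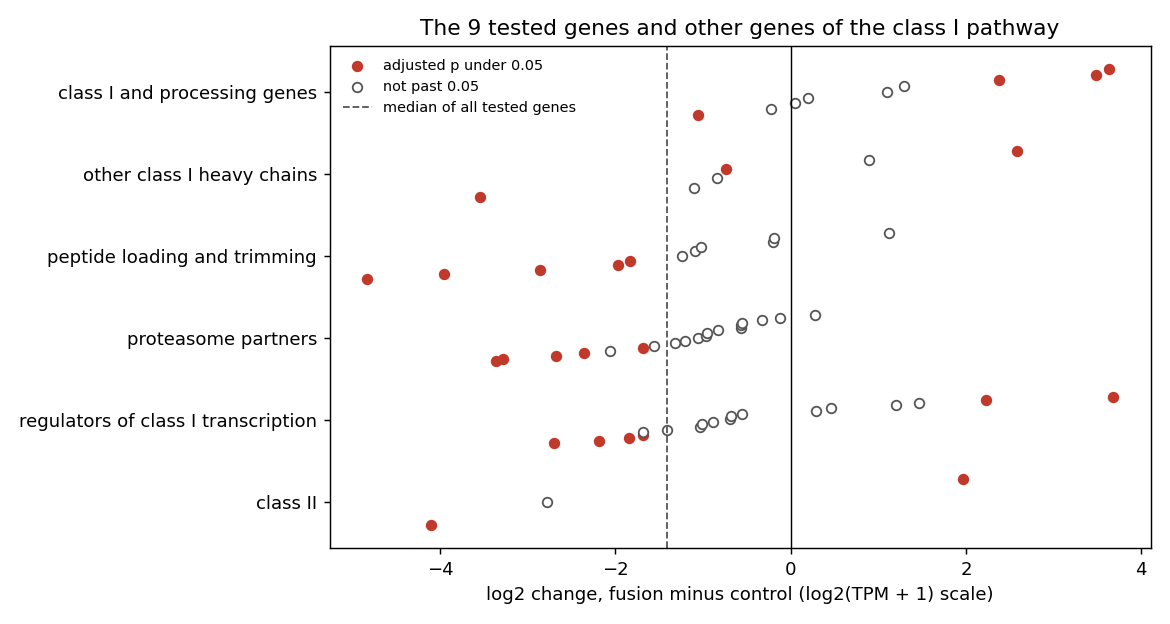
log2 change of every tested gene in the class I set and the 5 pathway lists, fusion minus control on the log2(TPM + 1) scale, filled where the adjusted p was under 0.05; the dashed line is the median of all tested genes, -1.41. Peptide loading and trimming genes reach -4.83 (Pdia3), while B2m and H2-K1 reach 3.49 and 3.63.

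Markers of cell types were read from 8 lists, and members of a list did not always move alike. Among all tested genes 4.95% were called higher and 51.3% lower, or 14.3% and 18.6% after rescaling. Of 14 microglia and macrophage markers, 10 were tested (3 higher, 2 lower and 5 not called, or 4 higher and none lower after rescaling), and the summed TPM of all 14 was 482 to 697 in the fusion and 58.4 to 135 in the control libraries. Fcer1g (327 and 480 TPM in the fusion, against 27.4 and 1.17 TPM in the control libraries) and Tyrobp (105 and 116 against 16.6 and 7.66 TPM), which encode adaptors of myeloid receptors, held most of that sum. Of the defining microglia markers, P2ry12 was listed at 0 in both fusion libraries, and Cx3cr1 and Trem2 were at no more than 0.112 and 0.0880 TPM there. Others did not go that way: Tmem119 had 0.372 and 1.90 TPM in the fusion libraries, against 0.585 and 1.73 TPM in control libraries, and Csf1r had 1.33 and 1.27 TPM in the fusion libraries, against 1.54 and 0.499 TPM in control libraries, both with overlap. Aif1 rose, with 12.8 and 35.9 TPM in the fusion libraries, against 4.01 and 0.726 TPM in control libraries (adjusted p = 0.0239, limma). The part of these cells in the higher B2m, H2-K1 and H2-T23 was not tested.

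Markers of monocytes, granulocytes and lymphocytes summed to 366 to 437 TPM in the fusion and 2.76 to 29.6 TPM in the control libraries. Most of it in the fusion libraries came from Plac8 and Cd52, while 6 of the 14, among them S100a9, Cd3e, Cd3g and Nkg7, were listed at 0 in both. Ly6c2, Ccr2 and S100a8 were at no more than 0.0638 TPM there. Lyz2 overlapped, at 14.0 and 59.4 TPM in the fusion, against 28.9 and 2.62 TPM in the control libraries. Of the 14, 4 had both fusion libraries above both control libraries and 10 overlapped. Among those 4, Cd8a had 0.00652 and 0.0103 TPM in the fusion libraries and Cd79a 0.792 and 1.61 TPM. Both were listed at 0 in both control libraries and were too low to be tested. Over all tested genes 10.2% were above, which is not a like share, as only 3 of the 14 were tested. Of the 3 tested, 2 rose, also after rescaling. This count and those of the next lists stand beside the 4.95% of all tested genes called higher and 51.3% called lower. After rescaling the shares were 14.3% and 18.6%. Fibroblast and meningeal markers summed to 554 to 1117 TPM in the fusion and 71.6 to 299.6 TPM in the control libraries. Of 11 tested, 4 were higher and none lower, or 7 higher and none lower after rescaling. Mgp alone had 364 and 717 TPM in the fusion libraries, against 0 and 1.34 TPM in control libraries, and without it the sums overlapped, at 189 and 399.8 TPM in the fusion libraries, against 71.6 and 298 TPM in control libraries. Endothelial markers, a cell type known for class I, summed to 5.03 to 10.5 TPM in the fusion and 3.68 to 5.79 TPM in the control libraries, and 1 of the 2 tested rose. Pericyte and smooth muscle markers summed to 23.5 to 86.0 TPM in the fusion and 104 to 285 TPM in the control libraries, with none of 3 higher and 1 lower. The lower gene, Cspg4, is also a precursor marker, and without it the sums overlapped, at 16.0 and 76.8 TPM in the fusion libraries, against 58.3 and 217 TPM in control libraries. The part of these cells was not tested either.

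Oligodendrocyte precursor markers, which check the sorted lineage, were detected in all 4 libraries, each marker lower in both fusion libraries than in both control libraries, as were 71.1% of all tested genes. Their sum was 455 to 583 TPM in the fusion and 1323 to 1711 TPM in the control libraries, and of 10 tested none rose and 7 fell, where 51.3% of all tested genes were called lower, or 1 rose and 2 fell after rescaling. Astrocyte and radial glia markers had none of 8 higher and 3 lower, or 3 higher and none lower after rescaling (9086 to 17318 TPM in the fusion and 9510 to 9542 TPM in the control libraries, nearly all Fabp7). Neuron markers had none of 8 higher and 5 lower, or 1 higher and 2 lower after rescaling (62.4 to 62.6 TPM in the fusion and 262 to 264 TPM in the control libraries). At an unadjusted p under 0.05 (limma), 0 markers of these 3 lists were higher, where at least 4.95% of all tested genes were.

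The genes whose pattern over the 4 libraries was most like that of B2m were found by Euclidean distance of log2(TPM + 1) values centred on each gene's mean. Ifit3b was nearest to B2m, at a distance of 0.0700, with 11.3 and 10.1 TPM in the fusion libraries and listed at 0 in both control libraries. Clec4a3, Ifi213, Trim30a and BC028528 followed at distances of 0.216 to 0.293. For H2-K1 the nearest were Csta2 (0.227), C4b (0.272), Trim30a (0.315), Ifi213 (0.408) and Irf7 (0.448). All of these but BC028528 were at no more than 0.339 TPM in the control libraries, where the added 1 TPM sets their baseline, while B2m and H2-K1 were far above it.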

How the data were processed

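RNA-seq was made from live tdTomato-positive cells with single-cell full-length cDNA amplification, per the labels' protocols, and no strand-specific kit is stated. The authors deposited 1 table of TPM, with the same total in every library. Per the submitters' processing notes, tools were Salmon 1.8.0 and Trimmomatic 0.39, with builds mm10 and GRCm38 listed. For the gene annotation, the release was not given in the sources used here. Because TPM keeps no depth, the depth per library is unknown and no counting interval is given. Columns were matched to samples by genotype and replicate number.

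Genes reaching 1 TPM or more in at least 2 libraries were tested on log2(TPM + 1) with limma 3.58.1 in R 4.3.3 (mean-variance trend, 2-sided, Benjamini-Hochberg over 12871 genes, threshold 0.05), after a test on simulated data. A fold on that scale understates the change of low genes. Within-library log2 ratios, with 1 TPM added to each side, were compared with exact permutation tests. Rescaling set each library's median ratio to 1 over 10965 genes above 0 in every library. Where rows share a symbol, the row of highest mean was used. Coordinates came from GENCODE M21 and promoters from RefSeq, both GRCm38.

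The members and lists were chosen with earlier results of these data known. Of each pathway list, up to 4 genes past the threshold with the largest change and up to 2 others of highest mean are named, with genes used in ratios. Nearest genes came from those with a mean of at least 5 TPM that are no predicted models. Alternatives were other pseudocounts, filters, scalings and limma settings, a replicate block, each library left out and, chosen after seeing the data, a GC content and length correction. Same-numbered libraries did not deviate together (Pearson correlation of deviations -0.04). Some genes and a motif that these rules take are not reported here.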

Additional observations from a re-analysis of the deposited data

How the results depend on the processing

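B2m, H2-K1 and H2-T23 were higher in all 15 alternatives and passed in 13 of them, the exceptions being without control replicate 1 and without control replicate 2. Their log2 changes ranged from 3.31 to 5.26, 3.34 to 5.86 and 1.98 to 4.41 over all settings. Against 3 of these genes called higher and 1 lower, the counts were 6 and 0 with a median ratio of 1, 7 and 0 with quantile normalization and 8 and 0 with the GC and length correction. None was called lower with no filter, with renormalization without mitochondrially encoded genes, with limma without the trend or robust, or with the replicate block, as Psme1 then had adjusted p from 0.0501 to 0.166 (limma). The replicate block (no pairing is stated in the labels) left 3 called higher and 0 lower, and 642 and 6978 of all genes. With 1 library left out, 0 to 5 genes of the set were called higher and 0 to 1 lower.

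Of all tested genes, 637 were called higher and 6606 lower. With no filter 353 were higher, with a mean of at least 5 TPM 405, and with renormalization without mitochondrially encoded genes 978. The counts were 1846 and 2396 with a median ratio of 1, 1948 and 1955 with quantile normalization, and 1766 and 2117 with the GC and length correction. With 1 library left out they ran from 14 to 1084 and from 1025 to 7987.

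H2-D1 turned to 1.53, 1.44, 0.34 and 1.98 with a median ratio of 1, quantile normalization, renormalization without mitochondrially encoded genes and the GC and length correction, and Psme1 to 0.70, 0.51 and 1.16 in the first, second and last of these. With 1 library left out, H2-D1 ran from -0.60 to 0.16, Tap1 from -0.59 to 0.99 and Tapbp from -0.45 to 0.55. The Psme1 to Psme3 ratio difference was -0.11 with a pseudocount of 5, against 0.27. The Tap1 to Tap2 difference was 3.13 with a pseudocount of 0.1 and 0.37 with 5, against 1.24. The cause was not tested. The unknown depth and 2 libraries a group limit the low values, those of Tap1, Tap2 and Psmb9 among them.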
